A study of Mus musculus with 6 samples.

Results

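The genes described here form the oncofetal circuit around the miRNA let-7, with 8 genes listed by name: Lin28a, Lin28b, Trim71, Hmga1, Hmga2, Igf2bp1, Igf2bp2 and Igf2bp3. A probe set, which is a group of probes for the same transcript, was taken as a member when the platform annotation gave it a single symbol equal to a listed name. This found 6 of the 8 genes, with 19 of the 45037 probe sets and 6 of the 18193 named genes of the array. No probe set carried the symbol Hmga1 or Igf2bp2 in the annotation used here, so these 2 genes have no value below.

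Expression was profiled in mouse embryonic stem cells of a line homozygous for a floxed Dcr gene (Dicerflox/flox), isolated 5 days after transfection. Dcr (gene symbol Dicer1) codes for Dicer, the nuclease that releases mature miRNAs from their hairpin precursors. The Dcr WT group received GFP alone and the Dcr KO group received GFP and Cre recombinase, with 3 arrays each that the methods call biological triplicates. Cells of both groups carry the floxed alleles and received GFP, and no group received Cre without a floxed gene, so an effect of Cre cannot be told apart from that of the deletion. The Dcr KO cells were a polyclonal population, in which cells that kept Dcr can remain. The paper describes the cells at this time as mostly Dcr null, with most miRNAs lost. The values are bulk measurements, in which a lower level per cell and fewer expressing cells cannot be told apart.

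LIN28A and LIN28B bind the let-7 precursor and block its maturation, and let-7 in turn represses the mRNAs of both, which makes a double-negative loop. In embryonic stem cells LIN28A is abundant and mature let-7 is scarce, and let-7 accumulates as cells differentiate. TRIM71, the mammalian relative of worm LIN-41, and members of the RNA-binding IGF2BP and chromatin-binding HMGA families are classical let-7 targets active in the embryo. Many of them, though not all, are silent in most adult tissues.

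The sequences of the miRNAs concerned are shown because their seeds, bases 2 to 8 in capitals, define which family could act on these genes. They are mature sequences from RefSeq on build GRCm38.p6, written 5′ to 3′. Of 11 mature let-7 and miR-98 names in that table, 10 share the seed of let-7a, among them:
let-7a-5p (chr13:48538239-48538260, minus strand): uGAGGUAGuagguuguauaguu
let-7g-5p (chr9:106178846-106178867, plus strand): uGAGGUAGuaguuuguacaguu
miR-98-5p (chrX:151913229-151913250, plus strand): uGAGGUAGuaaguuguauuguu
The exception in the list, let-7j, differs in the last base of the seed:
let-7j (chr3:140028281-140028304, plus strand): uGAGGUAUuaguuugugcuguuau
The miR-125 family has a separate seed and is known to repress Lin28a and Trim71:
miR-125a-5p (chr17:17830817-17830840, plus strand): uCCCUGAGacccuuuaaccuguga
miR-125b-5p (chr9:41581940-41581961, plus strand): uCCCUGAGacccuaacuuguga
Members of the mir-290-295 cluster, on which the study centred, carry another seed:
miR-294-3p (chr7:3220691-3220712, plus strand): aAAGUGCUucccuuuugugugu
miR-295-3p (chr7:3220815-3220837, plus strand): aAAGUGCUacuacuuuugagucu
Maturation of all of these miRNAs passes through Dicer. Their own levels, and sites for their seeds in the circuit mRNAs, were not analysed here.

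No measured circuit gene passed the test between Dcr KO and Dcr WT. Of the 6 genes, 5 had a mean over all arrays of 16 or more on the linear scale (4 on the log2 scale) and were tested with limma among 8782 genes, and Lin28b lay under that minimum. Of the 5, 0 were higher and 0 were lower at a Benjamini-Hochberg adjusted p under 0.05, and 0 reached an unadjusted p under 0.05. Over all genes tested 13.3% were called, 6.91% as higher and 6.42% as lower in Dcr KO. The groups overlapped for each of the 5 genes, whereas the groups of 39.0% of all genes tested did not overlap. None was up or down at least 1.2-fold, against 18.1% up and 22.0% down among the 8781 genes whose Dcr WT mean reached 16. The median log2 difference, Dcr KO minus Dcr WT, was -0.12 over the 5 genes and -0.02 over all genes tested. With only 5 genes these shares describe the genes and set them apart from nothing.

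Dicer1 itself was lower in Dcr KO. Its log2 level, the mean of its 2 probe sets, was 7.78, 7.89 and 7.16 on the Dcr WT arrays of replicates 1, 2 and 3, and 6.33, 6.59 and 5.92 on the Dcr KO arrays. All Dcr KO values lay below all Dcr WT values, with a log2 difference of -1.33 (standard error 0.23, adjusted p = 0.0134 from limma). Its probe sets were unequal, with -1.84 on 1427941_at (adjusted p = 0.0121 over probe sets from limma) and -0.82 on 1460571_at, which did not pass (adjusted p = 0.0855 over probe sets from limma). Whether these probes fall inside the floxed segment is not known here. All 10 pluripotency markers examined, Pou5f1, Nanog and Sox2 among them, were above the minimum. None passed the test, against 13.3% called of all genes tested. The groups of 6 of the 10 did not overlap, against 39.0% of all genes tested. Of the 10, 4 were up and 1 was down at least 1.2-fold. Among all genes with a Dcr WT mean of at least 16 these shares were 18.1% and 22.0%. The summed linear level of the 10 markers was 45183 to 49535 on the Dcr WT arrays and 49930 to 51254 on the Dcr KO arrays.

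**Figure D1:**
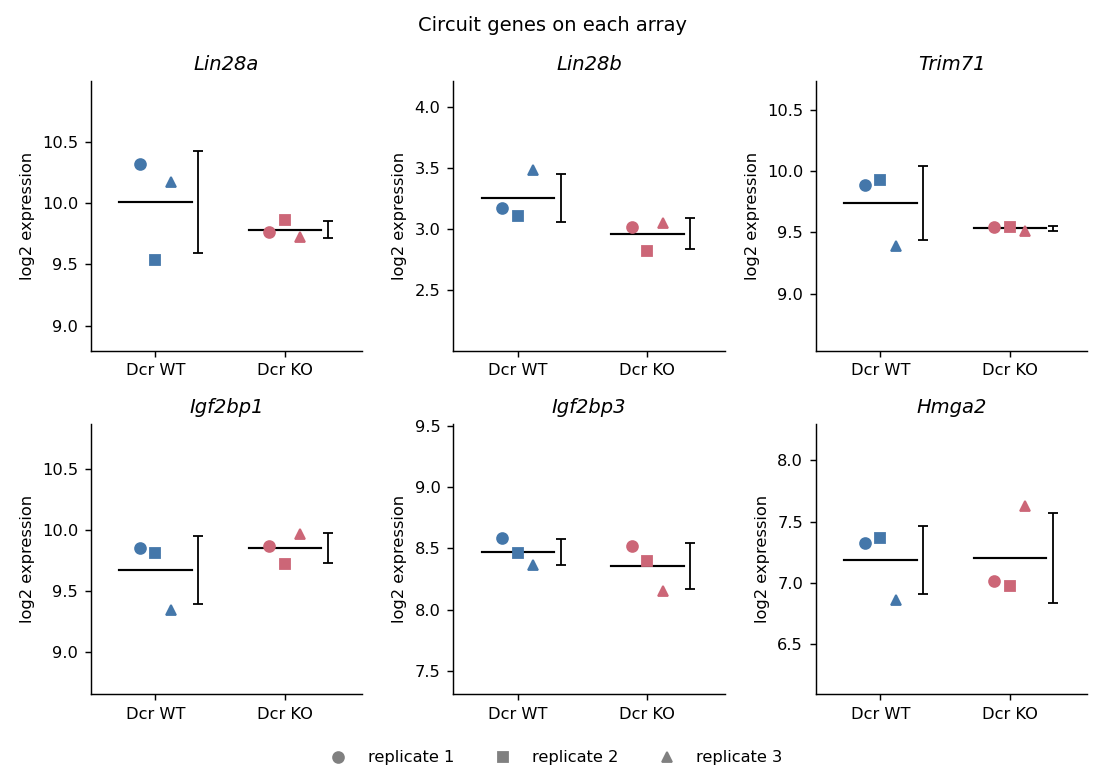
Log2 expression of the 6 measured circuit genes on each array (vertical axes, each spanning the same range on the log2 scale), by group; points are arrays with the replicate given by shape, horizontal lines are group means and bars are SD (n = 3). Only the groups of Lin28b do not overlap, at levels under the minimum of 4.

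Lin28a encodes the LIN28 paralog of the pluripotent state. Its log2 level was 10.32, 9.54 and 10.18 on the Dcr WT arrays and 9.76, 9.86 and 9.73 on the Dcr KO arrays, in replicate order. The Dcr KO values lay close together and between the lowest and the middle Dcr WT value. The group means were 10.01 ± 0.42 (SD, n = 3) and 9.78 ± 0.07 (SD, n = 3). The log2 difference was -0.23 (adjusted p = 0.455 from limma). Its 95% confidence interval ran from -0.68 to 0.22, which is 0.625-fold to 1.17-fold.

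The spread of Lin28a in Dcr WT came from probe set 1421749_at, which read 8.58, 6.99 and 8.84 there and 7.71, 8.24 and 8.07 in Dcr KO. The other probe set, 1437752_at, read 12.05, 12.08 and 11.51 in Dcr WT and 11.81, 11.48 and 11.38 in Dcr KO. Dcr WT replicate 2 was thus the lowest array for the first probe set and the highest for the second. Without that array the log2 difference of Lin28a was -0.46 and passed narrowly (adjusted p = 0.04999 from limma). With any other single array left out it lay between -0.27 and -0.07 and did not pass. By probe set, the differences on all arrays were -0.13 on 1421749_at and -0.32 on 1437752_at (adjusted p = 0.873 and adjusted p = 0.320 over probe sets from limma). Without Dcr WT replicate 2 they were -0.70 and -0.22 (adjusted p = 0.0772 and adjusted p = 0.532 over probe sets from limma).

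Lin28b, the paralog typical of later fetal stages and of tumours, was near background on its only probe set. Its log2 level was 3.17, 3.11 and 3.48 in Dcr WT and 3.02, 2.82 and 3.05 in Dcr KO. All Dcr KO values lay below all Dcr WT values, by a narrow margin. In a fit without the minimum level, the log2 difference was -0.29 with a 95% confidence interval from -0.58 to 0.00 (adjusted p = 0.215 from limma). At such levels a difference on this scale need not measure the transcript.

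Trim71 encodes a ubiquitin ligase that also silences mRNAs, among them cell cycle inhibitors. Its log2 level was 9.89, 9.93 and 9.39 in Dcr WT and 9.54, 9.55 and 9.51 in Dcr KO. The Dcr KO arrays lay close together (SD 0.02), and Dcr WT replicate 3 lay below them while the other Dcr WT arrays lay above. The log2 difference was -0.21, with a 95% confidence interval from -0.56 to 0.15 (adjusted p = 0.384 from limma). Its probe sets gave -0.17 and -0.24. Without Dcr WT replicate 3 the difference of the gene was -0.38 and still did not pass (adjusted p = 0.0757 from limma).

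Igf2bp1 encodes an RNA-binding protein that stabilizes and localizes mRNAs in the embryo. It had log2 levels of 9.86, 9.81 and 9.35 in Dcr WT and 9.87, 9.72 and 9.96 in Dcr KO. The groups overlapped and Dcr WT replicate 3 was the lowest of the 6 arrays. The log2 difference was 0.18, with a 95% confidence interval from -0.18 to 0.53 (adjusted p = 0.456 from limma), which is 0.884-fold to 1.45-fold. Its 4 probe sets all had a higher mean in Dcr KO, by 0.04 to 0.31 on the log2 scale, and none passed. Without Dcr WT replicate 3 the difference of the gene was 0.02, and without Dcr WT replicate 1 it was 0.27, the only array left out that put a circuit gene up at least 1.2-fold.

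Igf2bp3, a paralog of Igf2bp1 with a mostly fetal expression, is among the candidate targets of the mir-290-295 cluster that the study listed. The study drew up that list partly from these arrays, asking for a rise in Dcr KO, so that a rise of a listed gene would be no independent evidence. The gene value did not rise here, and of its probe sets only 1453957_a_at, described below, was up at least 1.2-fold. Its log2 level was 8.58, 8.47 and 8.37 in Dcr WT and 8.52, 8.40 and 8.15 in Dcr KO. The values interleaved, with Dcr KO replicate 3 the lowest. The log2 difference was -0.12, with a 95% confidence interval from -0.41 to 0.17 (adjusted p = 0.555 from limma), which is 0.755-fold to 1.13-fold.

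The 6 probe sets of Igf2bp3 did not run in the same direction. Of these, 5 had log2 differences from -0.33 to -0.10, and 1453957_a_at had 0.40, which is 1.32-fold (adjusted p = 0.343 over probe sets from limma). That probe set read 8.92, 7.91 and 8.74 in Dcr WT and 8.88, 8.94 and 8.94 in Dcr KO. Its positive difference rested on Dcr WT replicate 2, the array that also stood apart on probe set 1421749_at of Lin28a. Without that array it was 0.09. The lowest difference, -0.33, was on 1422610_s_at, with 10.40, 10.55 and 10.13 in Dcr WT against 10.14, 10.10 and 9.84 in Dcr KO. The suffix _a marks probes shared by transcripts of a gene, and _s and _x mark probes that can match other transcripts.

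Hmga2 encodes an AT-hook protein that binds chromatin and is a textbook let-7 target. The arrays gave log2 levels of 7.33, 7.37 and 6.87 in Dcr WT and 7.02, 6.98 and 7.63 in Dcr KO. Dcr WT replicate 3 was the lowest array and Dcr KO replicate 3 the highest. The log2 difference was 0.02, with a 95% confidence interval from -0.47 to 0.50 (adjusted p = 0.962 from limma), which is 0.724-fold to 1.42-fold. Its sign turned when replicate 3 was left out of Dcr KO (-0.19) or of Dcr WT (-0.14), so it has no settled direction. Of its 4 probe sets, 1446196_at lay under the minimum (1.91 to 2.37 over all arrays) and the others had differences of -0.13, -0.04 and 0.14.

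**Figure D2:**
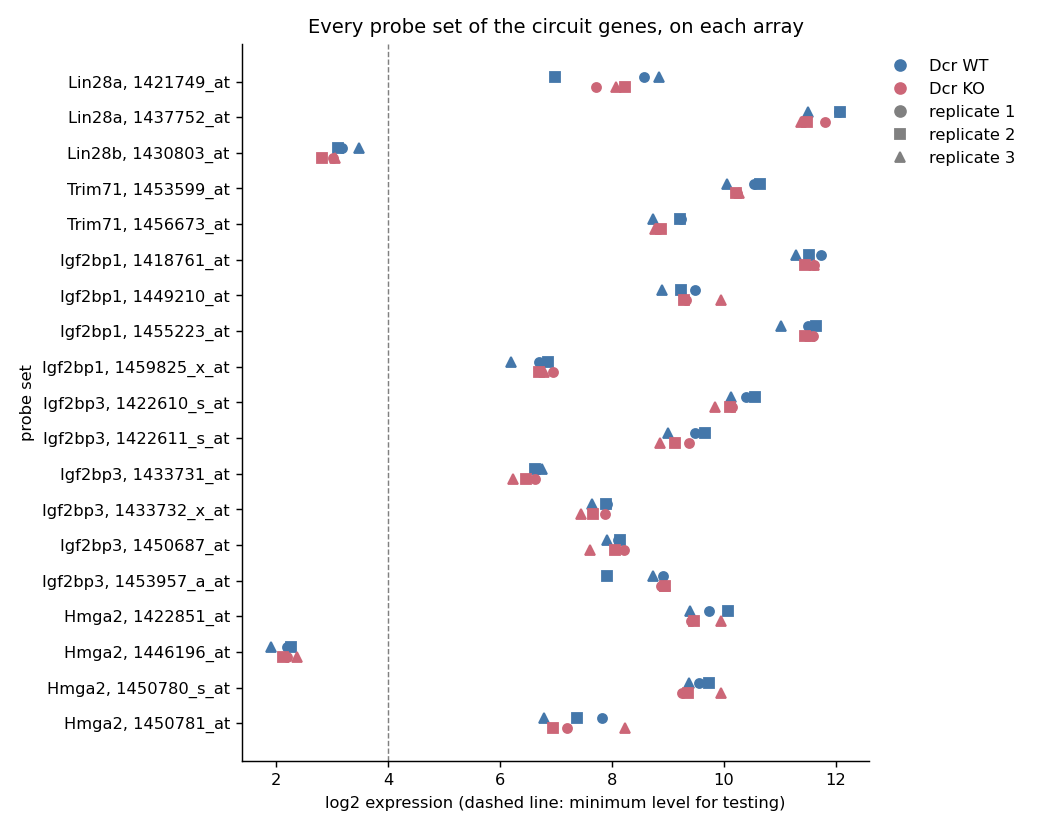
Log2 expression (horizontal axis) of all 19 circuit probe sets (1 a row) on each array, with Dcr WT in blue, Dcr KO in red and the replicate given by shape; the dashed line is the minimum level of 4. Blue and red points overlap in all 17 probe sets to the right of the line, and Dcr WT replicate 2 stands apart on 1421749_at and 1453957_a_at.

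Over single probe sets the count of calls was the same. Of the 17 circuit probe sets above the minimum, 0 passed limma over 16571 probe sets and 0 had an unadjusted p under 0.05, while 8.71% of all probe sets tested were called. The groups overlapped in all 17, by little on 1422610_s_at and 1433731_at of Igf2bp3, and in 36.6% of all probe sets tested they did not overlap. The Dcr KO mean was lower in 11 and higher in 6. By fold of the group means, 2 were up and 3 were down at least 1.2-fold. The share of all probe sets that did so was not computed. Probe sets of a gene measure the same RNA and are not replicates.

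Dcr WT replicate 3 often gave the lowest Dcr WT value for these genes. It was the lowest of the Dcr WT arrays in 14 of the 17 probe sets, against 36.5% of all probe sets tested. Dcr WT replicate 2 was the lowest in the other 3 and the highest in 9, against 29.8% and 40.7% of all probe sets tested. In Dcr KO no array held so large a share, with 4, 6 and 7 lowest values on replicates 1, 2 and 3. The within-group SD, pooled over both groups, was 0.21 for Trim71, 0.22 for Igf2bp1, 0.30 for Lin28a and 0.32 for Hmga2 on the log2 scale, at or above that of 70.6% of all genes tested. For Igf2bp3 it was 0.15, at or above that of 47.5%.

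**Figure D3:**
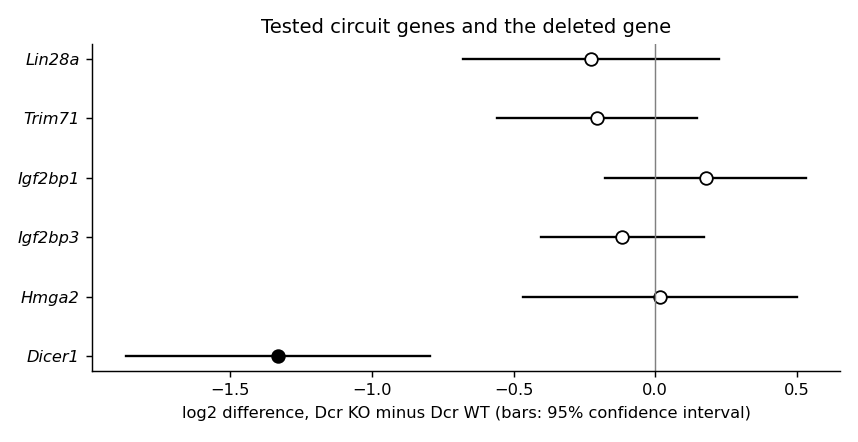
Log2 difference (horizontal axis, Dcr KO minus Dcr WT) for the 5 tested circuit genes and Dicer1 (points, filled where the adjusted p from limma is under 0.05; bars, 95% confidence intervals from the same fit). The intervals of the circuit genes all span 0 and end between 0.15 and 0.53, and that of Dicer1 runs from -1.87 to -0.80.

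The upper ends of the 5 intervals bound how large a rise these arrays leave room for. They were 1.11-fold for Trim71, 1.13-fold for Igf2bp3, 1.17-fold for Lin28a, 1.42-fold for Hmga2 and 1.45-fold for Igf2bp1. The lower ends, from 0.625-fold for Lin28a to 0.884-fold for Igf2bp1, describe a fall in the same way. Some single probe sets had wider intervals. On the log2 scale that of 1421749_at of Lin28a ran from -1.23 to 0.97 and that of 1450781_at of Hmga2 from -0.79 to 1.06. That of 1453957_a_at of Igf2bp3 ran from -0.21 to 1.00. Missing the threshold does not show that the levels were equal.

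Other textbook targets of let-7 gave a mixed picture. Of 38 listed genes, 27 were tested, 3 rose, 1 fell and 23 did not pass the test, so that 14.8% were called, against 13.3% of all genes tested. Their median log2 difference was 0.20, against -0.02 over all genes tested. Of the 27, 12 were up at least 1.2-fold (44.4%, against 18.1% of all genes) and 2 were down (7.41%, against 22.0%). Of these 12, 7 are on the study's list of mir-290-295 candidates, which was drawn up partly from a rise on these arrays. Among the 19 tested genes off that list, 5 were up at least 1.2-fold (26.3%). The share among all genes off that list was not computed, so this value has no matched background. All 3 genes that rose are on that list, and their rise is no independent evidence of direction.

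Ccnd2, which encodes the G1 cyclin D2, had log2 levels of 4.65, 5.04 and 4.39 in Dcr WT and 7.42, 7.50 and 8.09 in Dcr KO. The groups lay far apart, with a log2 difference of 2.98 (standard error 0.22, adjusted p = 0.00100 from limma). Thbs1, which encodes the matrix protein thrombospondin 1, went from 8.83, 7.71 and 7.81 to 9.16, 9.44 and 10.48, a log2 difference of 1.57 (standard error 0.39, adjusted p = 0.0389 from limma). It passed only when the array left out was replicate 1 of either group (highest adjusted p = 0.128 without another array). Cdk6, a G1 kinase, had a log2 difference of 0.75 (standard error 0.15, adjusted p = 0.0225 from limma) and did not pass without replicate 3 of either group or without Dcr KO replicate 2 (highest adjusted p = 0.0618).

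The gene that fell was Nras, a RAS GTPase gene that is also a classical let-7 target. It had log2 levels of 9.52, 9.58 and 9.51 in Dcr WT and 9.22, 9.17 and 9.21 in Dcr KO. The groups did not overlap. The difference of -0.34 (standard error 0.09, adjusted p = 0.0456 from limma) did not pass with any single array left out (adjusted p from 0.0841 to 0.159). The count of called genes in this list was 1 when replicate 3 of either group or Dcr KO replicate 2 was left out, and 2 when Dcr WT replicate 2 was. Tgfbr1, Plagl1, Plagl2 and Mycn had log2 differences of 0.88, 0.50, 0.45 and 0.47 with groups that did not overlap, and did not pass (adjusted p from 0.0548 to 0.0743 from limma). Tgfbr1 and Mycn are on the study's list. Cdc34, a ubiquitin-conjugating enzyme gene, likewise had groups that did not overlap and did not pass, with a difference of -0.32 (adjusted p = 0.0594 from limma). In this list 10 of the 27 tested genes had groups that did not overlap, a share near the 39.0% of all genes tested.

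**Figure D4:**
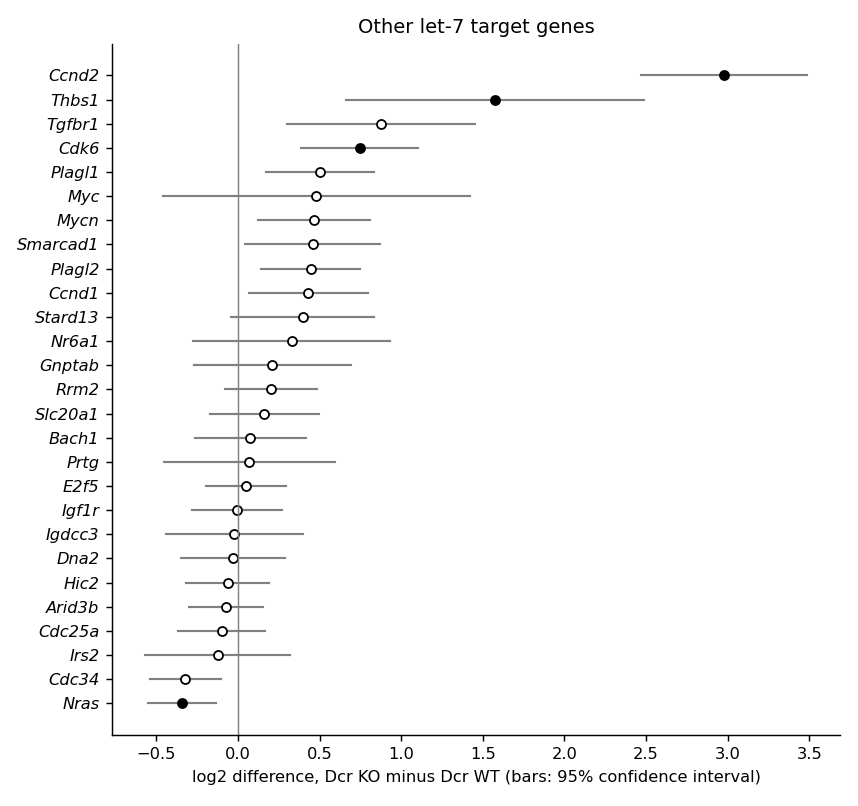
Log2 difference (horizontal axis, Dcr KO minus Dcr WT) for the 27 tested genes of the list of other let-7 targets (points, filled where the adjusted p from limma is under 0.05; bars, 95% confidence intervals). Ccnd2, Thbs1 and Cdk6 are filled on the right and Nras is filled on the left.

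Apart from Dicer1, which passed and is not in this list, the tested genes that make and tail let-7 did not pass. Of 15 listed, 13 were tested and 0 were called by limma, against 13.3% of all genes tested, and 2 had an unadjusted p under 0.05, as did 2813 of the 8782 genes tested. They include Drosha and Dgcr8, the nuclear processor (log2 differences of 0.17 and 0.40), and Tut4 and Tut7, which add uridines to the let-7 precursor that LIN28 holds (-0.19 and -0.05). The smallest adjusted p were those of the helicases Ddx17 (0.26, adjusted p = 0.0907 from limma) and Ddx5 (0.28, adjusted p = 0.102 from limma). Ddx5 is on the study's list of candidates, which was drawn up partly from a rise on these arrays. The median log2 difference of the 13 tested genes was -0.04.

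Of 9 mRNAs listed as repressed by TRIM71, 7 were tested, 2 rose and 5 did not pass. That is 28.6% called, against 13.3% of all genes tested, in a list of only 7, with a median log2 difference of 0.18 against -0.02. Rbl2, a pocket protein gene related to Rb, had log2 levels of 4.13, 4.02 and 4.16 in Dcr WT and 5.41, 5.23 and 4.92 in Dcr KO (difference 1.08, standard error 0.14, adjusted p = 0.00560 from limma). Cdkn1a, which encodes the cell cycle inhibitor p21, had 7.60, 7.57 and 7.90 in Dcr WT and 8.41, 8.59 and 9.17 in Dcr KO (difference 1.03, standard error 0.20, adjusted p = 0.0189 from limma). Both are also known targets of the mir-290-295 cluster, and Cdkn1a is on the study's list. Cdkn1a did not pass when replicate 2 of either group or Dcr WT replicate 1 was left out (highest adjusted p = 0.0531).

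Among genes of the insulin-like growth factor axis, to which the IGF2BP proteins owe their name, 8 of 16 were tested, 0 rose and 1 fell (12.5% called, against 13.3% of all genes tested). Igfbp3, a binding protein that holds the growth factors in the medium, fell from 10.42, 10.31 and 9.84 to 9.42, 9.17 and 9.09 (difference of -0.96 on the log2 scale with standard error 0.17, adjusted p = 0.0142 from limma), a call lost without Dcr KO replicate 2 (adjusted p = 0.0519). Igf2, whose mRNA IGF2BP proteins bind, had a difference of 0.26 (adjusted p = 0.308 from limma), and the receptors Igf1r and Igf2r had -0.01 and 0.00. Of 7 other HMG genes, 5 were tested and 1 rose, 1 call in 5 against 13.3% of all genes tested. Hmgb2, an HMG-box protein of dividing cells, had a difference of 0.40 (standard error 0.09, adjusted p = 0.0299 from limma), which did not pass with any single array left out (adjusted p from 0.0528 to 0.0990).

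Some markers of other cell types differed between the groups. Of the markers examined, Vim (log2 difference 1.16), Tubb3 (0.73) and Lama1 (0.52) were higher in Dcr KO and Pou3f1 (-0.54) was lower by limma (adjusted p from 0.0100 to 0.0428). They were 1 of 3 tested fibroblast, 1 of 2 neural, 1 of 2 primitive endoderm and 1 of 4 epiblast and primitive streak markers. Of 3 tested trophectoderm markers 0 were called. Over all genes tested 13.3% were called, and lists this short cannot be set apart from that share. Vim did not pass when Dcr WT replicate 3 was left out. With 1 array left out, Pou3f1 passed only without that same array and Lama1 only without Dcr WT replicate 2. Pou3f1 also did not pass with its brightest probe set alone (-0.17, adjusted p = 0.365), nor Lama1 after repeated quantile normalization (adjusted p = 0.0554) or with arrays centred on their median (adjusted p = 0.0527). Vim is on the study's list of candidates, so its rise is no independent evidence of direction. The summed linear level of the 8 fibroblast markers was 2326 to 3005 in Dcr WT and 4634 to 7516 in Dcr KO, and 5 of them, Thy1, Pdgfra, Dcn, Lum and Postn, lay under the minimum. Vim made up 97.2% to 99.1% of that sum, and the other 7 summed to 57.4 to 64.1 in Dcr WT and 57.2 to 65.5 in Dcr KO. For 7 neural markers it was 331 to 384 and 532 to 613, and 5 of them, Sox1 and Pax6 among them, lay under the minimum. Tubb3 made up 86.3% to 91.5% of that sum, and the other 6 summed to 39.5 to 45.4 and 50.9 to 54.8. For 8 markers of primitive endoderm it was 173 to 220 and 249 to 267, with 2 above the minimum, for 6 of epiblast and primitive streak 423 to 588 and 337 to 346, with 4 above it, and for 7 of trophectoderm 9124 to 11412 and 12011 to 12824, with 3 above it. A single gene again made up most of each sum, Lama1 with 71.4% to 81.7%, Pou3f1 with 50.2% to 56.4% and Krt18 with 88.8% to 93.6%. Without Pou3f1 the other markers of epiblast and primitive streak summed to 202 to 288 in Dcr WT and 148 to 172 in Dcr KO. The others of primitive endoderm summed to 48.3 to 52.0 and 47.9 to 52.1, and of trophectoderm to 875 to 1115 and 802 to 1350. Of the epiblast and primitive streak markers, 5 had a Dcr WT mean of at least 16. All 5 were down at least 1.2-fold, against 22.0% of all such genes. The part of these differences in the values of the circuit genes was not tested.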

How the data were processed

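The deposited values cover 45037 probe sets on 6 Affymetrix arrays. They are log2 expression made by the authors with GCRMA, for which the submitters give version 2.20.0 under R 2.11.1. GCRMA corrects background by probe sequence and normalizes arrays together, which makes small differences near background unreliable. The paper describes arrays of acute and of long-term Dicer deletion as normalized jointly, so the deposited values may depend on long-term arrays that are not analysed here. No array column was left unused (0 columns).

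The platform annotation gave 1 symbol to 34945 probe sets, several to 932 and none here to 9160. A gene's value is the mean log2 of its single-symbol probe sets. Genes whose mean over all arrays reached 16 on the linear scale entered a limma 3.58.1 fit (lmFit, then eBayes, in R 4.3.3) of Dcr KO against Dcr WT without covariates, with Benjamini-Hochberg adjustment over all genes tested and a threshold of 0.05. Probe sets were tested likewise. The steps were tested on simulated data. Recovery was scored there only for changes larger than those of the circuit genes, so it does not bear on their lack of calls. With 3 arrays a group, the smallest two-sided p of a permutation test is 0.1, so none was used for single genes. The number of arrays limits precision.

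The members and lists were chosen with earlier results of these data known. Of each list, the called genes are named, up to 4. Uncalled list genes were named after their values were seen. A search for genes of similar pattern was planned for called members only and named none. The planned protein comparison is not analysed here. The alternatives were other minimum levels, probe set summaries, normalizations, variance models, the replicate number as a block, and leaving out each array. Gene coordinates are left out, since the deposited values state no genome build. Python 3.11.15 with pandas 2.3.3 handled tables.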

Additional observations from a re-analysis of the deposited data

How the results depend on the processing

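Under 10 other settings and with each of 6 arrays left out in turn, a circuit gene was called only once, Lin28a without Dcr WT replicate 2. With single arrays left out, the count of called circuit genes was 0 to 1, that of circuit genes up at least 1.2-fold was 0 to 1, and the log2 difference of Lin28a lay between -0.463 and -0.0733. Hmga2, with no call in any setting, changed sign with its brightest probe set alone (-0.133), with only probe sets over the minimum (-0.0111), with arrays centred on their median (-0.0083) and with array weights (-0.166), and lay between -0.192 and 0.133 with single arrays left out. Trim71, Igf2bp1 and Igf2bp3 kept their sign in all of these settings, none with a call. For 2 of them the sign is not a settled direction. Igf2bp1 came to 0.0171 without Dcr WT replicate 3, and Igf2bp3 to -0.0139 without Dcr KO replicate 3. The count of circuit probe sets called was 0 throughout. The count of other let-7 targets called, 4, became 7 with the brightest probe set of each gene, 7 with probe sets over the minimum and 7 with array weights, and 1 to 6 with single arrays left out. The count over all genes, 1171, fell to between 357 and 783 with single arrays left out, where fewer arrays entered the fit (220 to 465 higher, 137 to 376 lower). Same-numbered arrays of the groups did not deviate together (correlations of -0.22, -0.02 and 0.03). Among arrays of unlike number the correlations ran from -0.23 (Dcr WT replicate 2 with Dcr KO replicate 3) to 0.31 (Dcr WT replicate 2 with Dcr KO replicate 1). With so few arrays these values cannot settle whether arrays were handled in pairs. With the replicate block, 597 genes were called, 354 higher and 243 lower, with 0 circuit genes and 1 other let-7 target among them. The 3 arrays a group, and signals near background for Lin28b, limit what these data can resolve.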
